A study of Caenorhabditis elegans with 4 samples.

Results

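LIN-53 regions on chromosome IV of Caenorhabditis elegans are the intervals of that chromosome where peaks were called in ChIP-seq (chromatin immunoprecipitation followed by sequencing) of the chromatin protein LIN-53. All peaks of chromosome IV in both replicate peak lists were taken, and peaks that shared at least 1 bp, within or between the lists, were joined into a region. This gave 523 regions, out of 2662 regions on all chromosomes. Of the 523 regions, 220 held peaks of both replicates (42.1%, with 46.4% over all chromosomes), 136 held a peak of replicate 1 only and 167 held a peak of replicate 2 only. The material was L3 larvae of the wild-type strain N2, a population of mixed sex, grown at 20 °C and fixed with 1% formaldehyde for 10 min. LIN-53 was precipitated with an affinity-purified rabbit polyclonal antibody in 2 ChIP libraries, and 2 input DNA libraries of the same strain and stage served as the unprecipitated material. No peak list of the input libraries was analysed here, so every value below comes from the ChIP peak lists or the series list of sites. Whether the input was used in making these lists is not stated. The study has no mutant or second stage to compare, and whole larvae mix all tissues.

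LIN-53 is homologous to the RbAp proteins of mammals, WD-repeat histone chaperones named for their binding to the retinoblastoma protein. It is a shared subunit of several chromatin complexes, among them the DRM complex (the worm DREAM complex, which represses genes together with the retinoblastoma homolog LIN-35), the nucleosome-remodelling NuRD complex and the chromatin assembly factor CAF-1. In larvae, lin-53 belongs to the class B synthetic multivulva genes, which restrain vulval fates.

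The score of a peak is the value deposited by the authors, whose scale the headers do not name. It is used here to rank peaks within a list, and ratios between the lists assume that both use the same scale. Coordinates refer to WormBase build WS220. No genes were assigned to the regions, because the gene table at hand is on another assembly. Read depth is unknown, so a region missing from a list cannot be read as unbound. Whether the numbered replicates are separate cultures is not said in the labels.

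On chromosome IV, replicate 1 had 360 peaks with a median width of 135.5 bp and replicate 2 had 407 peaks with a median width of 103 bp. They covered 53.7 kb in replicate 1 and 54.7 kb in replicate 2, so replicate 2 had more peaks over a similar length. Joined regions covered 74.8 kb, or 0.428% of the chromosome. Intervals in parentheses are exact 95% binomial intervals and cover the counting of regions only.

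Ranked by the mean of their score ranks in both lists, the first 10 regions comprised 5 in the left section of the chromosome, 0 in the middle section and 5 in the right section, each section being 33.3% of the length. The positions of these regions were not tested. The third highest replicate 1 score lay in the middle section, at 9386077 to 9386350 (153.41 in replicate 1 and 35.2 in replicate 2), a region named after its values were seen. The first, IV:4390480 to 4390860, reached 194.20 in replicate 1, the highest replicate 1 score of the chromosome, and 143.16 in replicate 2. The second spanned 12404148 to 12404510 and scored 134.13 in replicate 1 and 71.8 in replicate 2. For 14464045 to 14464339, replicate 1 gave 125.13 and replicate 2 gave 55.7. These 3 regions were high in both libraries, and each score was higher in replicate 1.

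Near the left end, the region from 385509 to 385738 scored 117.12 in replicate 1 and 94.4 in replicate 2. It had a weaker neighbour from 385110 to 385320, with scores of 31.7 and 18.4. The leading group had a further pair in the first megabase, namely 654776 to 655028 (108.42 and 50.4) and 255486 to 255796 (117.38 and 48.2). In each of these pairs of scores replicate 1 comes before replicate 2. Further inward lay 4749893 to 4750164 (119.18 and 60.4). On the right were 12724597 to 12724917 (120.70 and 49.3) and 14959516 to 14959775 (159.21 and 48.2). The remaining region of this group, from 14824790 to 14825353, was the exception in its balance. It scored 90.8 in replicate 1 and 189.28 in replicate 2, the highest replicate 2 score of the chromosome.

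Scores of the 220 regions in both lists ran from 2.49 to 194.20 in replicate 1, with a median of 23.4 and an interquartile range of 11.1 to 49.6. In replicate 2 they ran from 2.00 to 189.28, with a median of 12.3 and an interquartile range of 7.15 to 24.0. Replicate 1 had the higher score in 179 regions, or 81.4% (75.6 to 86.3%), and among all autosomal regions in both lists that share was 85.0%. The median ratio of the replicate 1 to the replicate 2 score was 1.97 on chromosome IV and 2.05 on the other autosomes. The difference between these medians was not tested. Over the 201 regions with a single peak of each list, Spearman's rho between the scores was 0.780 and Pearson's r was 0.729. These describe regions of the same pair of libraries, which are not independent replicates.

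**Figure D1:**
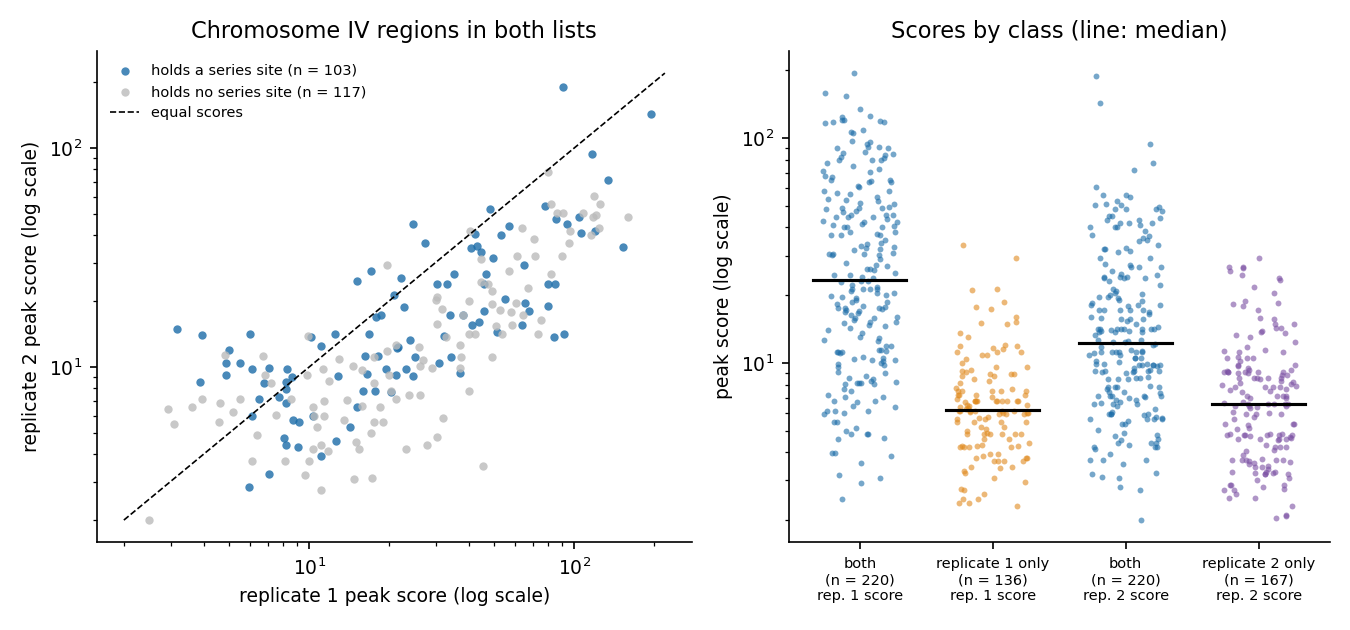
Left, the replicate 2 peak score against the replicate 1 peak score (both log axes) for the 220 chromosome IV regions in both lists, coloured by whether they hold a site of the series list, with a dashed line of equal scores; most points lie below the line. Right, peak scores (log axis) by class, 1 point a region with the median as a line; regions in both lists have medians of 23.4 in replicate 1 and 12.3 in replicate 2, above the medians of 6.17 and 6.55 of the single-list classes.

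The ratio spread widely around its median, with an interquartile range of 1.20 to 2.84. The highest ratio was 12.8, in the region from 2177639 to 2177808, which scored 45.4 in replicate 1 and 3.54 in replicate 2. Next came 1738284 to 1738642, with 91.5 and 14.1, and 393520 to 393670, with 30.5 and 4.78. The lowest ratio was 0.213, in the region from 15188615 to 15188909, which scored 3.17 in replicate 1 and 14.9 in replicate 2. The other extremes of this kind were 15059277 to 15059393, with 3.96 and 14.0, and 11822161 to 11822371, with 4.98 and 12.01. All 3 regions with the highest ratios were in the left section, and all 3 with the lowest ratios were in the right section. Median ratios of whole sections were 1.91 in the left, 1.91 in the middle and 2.06 in the right section. They were not tested, and medians cannot be set against regions picked as extremes.

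In the 201 single pairs, which overlap because the joining rule asks for it, the peak midpoints were 16.5 bp apart at the median (interquartile range 8 to 35 bp, highest 106 bp). The narrower peak of the pair lay wholly inside the wider one at the median, with 100% of its length shared, and the lower quartile of this share was 93.3%. Median peak widths in these pairs were 181 bp in replicate 1 and 195 bp in replicate 2. In a further 15 regions, 1 peak of replicate 1 met several peaks of replicate 2, and in 2 regions the reverse held. The widest region, from 11339762 to 11340435 (674 bp), joined 2 peaks of replicate 1 and 3 of replicate 2, with top scores of 18.2 and 11.3. Next in width were the region from 14824790 to 14825353 described above (564 bp) and the region from 7486105 to 7486655 (551 bp, scores 15.8 and 9.70). The first and the third of these scored below the median of 23.4 in replicate 1, and the region at 14824790 scored far above it.

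Regions of a single list were weak and narrow. In replicate 1, the median score was 23.4 for the 220 regions in both lists and 6.17 for the 136 regions of replicate 1 only. In replicate 2 it was 12.3 for regions in both lists and 6.55 for the 167 regions of replicate 2 only. Median widths were 214 bp in both lists, 78.5 bp for replicate 1 only and 65 bp for replicate 2 only. A region in both lists is joined from peaks of each list, so part of its width comes from the joining. The other autosomes had the same order, with medians of 206, 84 and 56 bp. Scores overlapped between classes to a different extent in each list. Among replicate 1 only regions, 2 of 136 (1.47%, 0.179 to 5.21%) scored above the median of regions in both lists, whereas 27 of 167 replicate 2 only regions did (16.2%, 10.9 to 22.6%). Of these 27, 14 lay in a single dense stretch of 9149 bp described below, and outside it the share was 13 of 132 (9.85%, 5.35 to 16.3%).

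The highest-scoring replicate 1 only regions stood far from any replicate 2 peak. They were at 3213517 to 3213681 (score 33.5, nearest replicate 2 peak 80963 bp away), 12209133 to 12209243 (29.2, 52243 bp) and 9777656 to 9777812 (21.2, 80358 bp). The highest replicate 2 only region, from 5691128 to 5691215, scored 29.2 and lay 34895 bp from the nearest replicate 1 peak. The next, 8575094 to 8575191 (26.7) and 8573430 to 8573561 (26.7), belong to a dense stretch described below. Of all single-list regions, 27 of 136 of replicate 1 (19.9%) and 44 of 167 of replicate 2 (26.3%) lay within 500 bp of a peak of the other list.

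Chromosome IV had a smaller share of regions in both lists than the other autosomes. The share was 42.1% on IV (220 of 523, 37.8 to 46.4%) and 50.3% on I, II, III and V together (973 of 1936, 48.0 to 52.5%), while 46.4% was the share over all chromosomes including X. The difference passed the threshold of an adjusted p below 0.05 (two-sided Fisher's exact p = 0.000948, adjusted p = 0.00190 over the 4 tests made). Replicate 2 only regions made up 31.9% of regions on IV (27.95 to 36.1%) and 24.0% on the other autosomes (22.1 to 26.0%), while replicate 1 only regions made up 26.0% and 25.7%. Seen by list, 59.0% of 407 replicate 2 peaks on IV had a partner in replicate 1, and 68.9% of 1493 on the other autosomes did. For replicate 1 peaks the shares were 62.2% of 360 on IV and 66.6% of 1490 on the other autosomes. The test treats regions as independent, which neighbouring regions are not.

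Part of the replicate 2 only regions came in dense runs, here meaning at least 5 regions separated by gaps of at most 500 bp. Runs held 60 of the 523 regions on IV, or 11.5% (8.87 to 14.5%), against 7.96% over all chromosomes, and 121 of 1936 on the other autosomes (6.25%, 5.21 to 7.42%). This difference was not tested, and other chromosomes came near or above IV. Chromosome I also had 6 runs, with 9.25% of its regions, and X had 15.3% of its regions in runs. Runs held 32.3% of the replicate 2 only regions on IV, against 31.5% on I and 29.5% on X. The 6 runs of chromosome IV comprised 54 replicate 2 only regions, 2 replicate 1 only regions and 4 regions in both lists. In 4 of the 6 runs every region was of replicate 2 only. With regions in runs left out, the share in both lists was 46.7% on IV and 53.1% on the other autosomes (Fisher's exact p = 0.0143, adjusted p = 0.0286). The difference was thus smaller. This adjusted p was formed beside the other tests with runs still counted. With runs left out of all 4 tests it would be larger and was not computed, so no call at the threshold is made. Without runs, both single-list classes were larger on IV. Replicate 2 only regions made up 24.4% on IV and 20.3% on the other autosomes, and replicate 1 only regions 28.9% and 26.6%.

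The densest stretch lay from 8572697 to 8581845. When gaps of up to 1000 bp were allowed, a distance chosen after the data were seen, it comprised 35 regions over 9149 bp, and all 35 came from replicate 2. On the other autosomes the largest such stretch held 24 regions, on chromosome III, also of replicate 2 only. Within the stretch on IV, replicate 2 scores ran from 3.36 to 26.7 with a median of 9.32, peaks were 41 to 222 bp wide, and the median gap was 112 bp. The peaks covered 37.3% of the stretch. Of the 10 highest-scoring replicate 2 only regions of the chromosome, 7 lay inside it. The nearest replicate 1 peaks were 33774 bp to the left (8538807 to 8538922, score 5.47) and 5209 bp to the right (8587055 to 8587211, score 13.6). The series list had 0 sites in it.

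**Figure D2:**
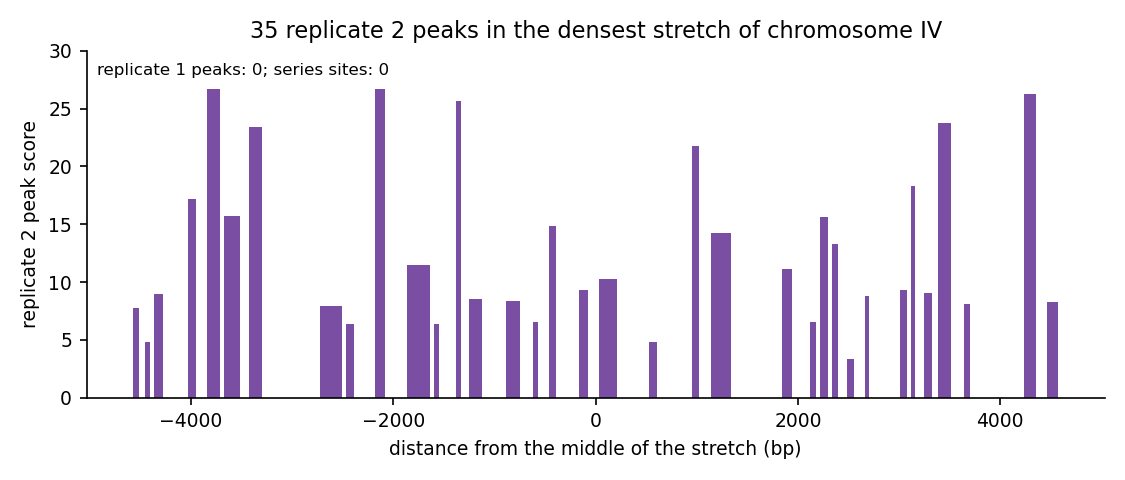
Replicate 2 peaks of the stretch from 8572697 to 8581845, drawn to scale by distance from its middle (bp) with the bar height giving the peak score. The 35 peaks reach scores up to 26.7 and alternate with gaps, and replicate 1 has 0 peaks here.

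A second stretch of this kind spanned 11071021 to 11073699, with 13 regions of replicate 2 only, a top score of 24.6 and 0 series sites. A run at 12022743 to 12025398 was mixed. It held 13 regions, of which 10 were of replicate 2 only, 1 of replicate 1 only and 2 in both lists. The regions in both lists were 12023831 to 12023997, which scored 11.1 and 12.5 in replicates 1 and 2, and 12024627 to 12024999, which scored 15.2 and 24.7. The series list placed 4 sites in this run. The smallest run, from 11324130 to 11325090, had 5 regions, of which 2 were in both lists.

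In number per length, no difference between chromosome IV and the other autosomes passed the threshold when all regions were counted. It held 30.0 regions per Mb, against 29.8 per Mb on I, II, III and V, a density ratio of 1.01 (95% exact interval 0.912 to 1.11, exact binomial p = 0.902, adjusted p = 0.902). Counted by regions in both lists alone, the density was 12.6 per Mb on IV and 15.0 per Mb on the other autosomes (ratio 0.842, 0.724 to 0.976, exact binomial p = 0.0212, adjusted p = 0.0283). This adjusted p was formed beside the other tests with all regions counted. With the middle section also restricted to regions in both lists, it would be larger. The share in both lists has no value at that setting, so passing the threshold depends on which tests are counted. The ratio and its p thus depended on whether single-list regions were counted.

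Along the chromosome, regions were most numerous in the fifth and the seventh of 10 equal parts. These held 89 regions (6984638 to 8730797) and 88 regions (10476957 to 12223115), and the other parts held 29 to 60. With regions in runs left out, these parts held 56 and 61, close to the 60 of each of the leftmost parts. Regions in both lists were most numerous at the left end, with 37 in the first part, where they made up 61.7% of all regions. They were fewest in the fourth part, with 11.

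**Figure D3:**
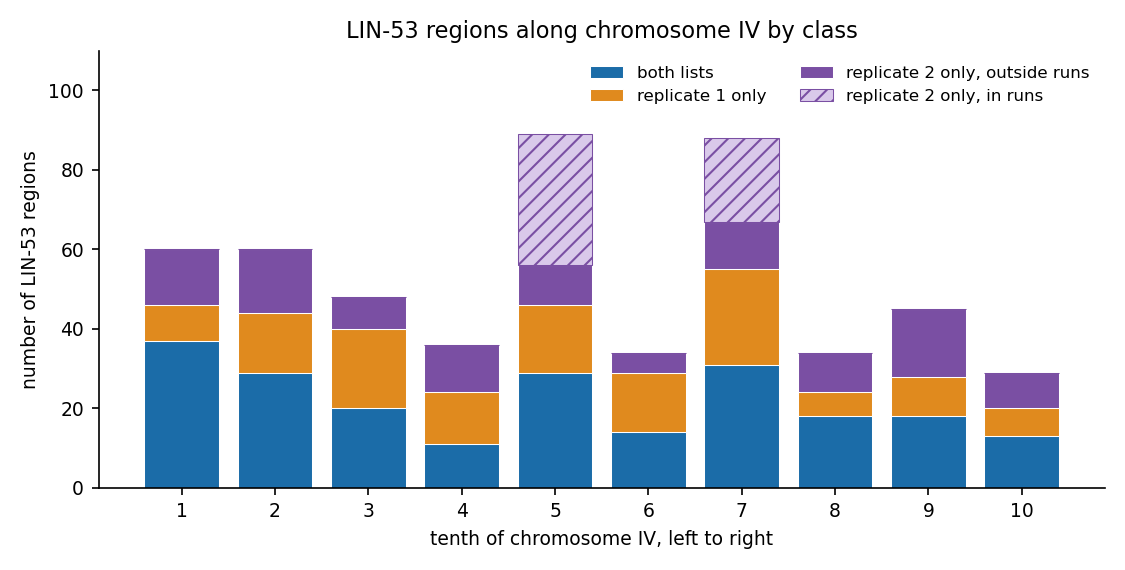
Number of LIN-53 regions in each of 10 equal parts of chromosome IV, left to right, stacked by class, with replicate 2 only regions in runs hatched. The 2 tallest columns, 89 and 88 regions, are those with the hatched part.

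The middle section held 216 of the 523 regions, or 41.3% (37.0 to 45.7%), above its 33.3% of the length (exact binomial p = 0.000140, adjusted p = 0.000559), while the share over all autosomal regions was 37.4%. The excess was past the threshold only with single-list regions and runs counted. The middle section contained 47 of the 60 regions in runs, and without runs its share was 36.5% (32.1 to 41.1%, exact binomial p = 0.153, adjusted p = 0.306). Among regions in both lists the middle share was 35.5% (29.1 to 42.2%, exact binomial p = 0.520, adjusted p = 0.800). Regions in both lists made up 36.1% of the middle section, 48.9% of the left and 42.6% of the right. Their median replicate 1 scores were 20.4 in the middle, 30.5 on the left and 24.6 on the right. Their median replicate 2 scores lay closer together, at 11.2, 12.6 and 14.1.

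Between regions, chromosome IV had long stretches with no LIN-53 peak. The longest, from 3726106 to 4042332, measured 316 kb and was bounded by regions in both lists. Next were 4810653 to 5089856 (279 kb) and 14464340 to 14740529 (276 kb), and the last of these began right after a region of the leading 10. The median gap was 11196 bp between neighbouring regions and 45826 bp between neighbouring regions of both lists.

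The series list was deposited for the whole series, and its entries are named consistent sites. Whether it was drawn from these same libraries is not stated, so it is not an independent check of the regions. It had 128 sites on chromosome IV, with a median width of 76 bp. Of these, 109 lay on regions in both lists (85.2%, 77.8 to 90.8%), compared with 88.5% over all chromosomes, 17 on regions of replicate 2 only, 0 on regions of replicate 1 only and 2 on no region. Seen from the regions, 103 of the 220 in both lists held a site, or 46.8% (40.1 to 53.6%), against 45.2% over all chromosomes. The share on the other autosomes was 44.7% (41.6 to 47.9%), and the difference did not pass the threshold (Fisher's exact p = 0.600, adjusted p = 0.800).

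The number of regions with a site differed little between quartiles of mean score rank, and more between quartiles of the score ratio, the replicate 2 score and the width. None of these differences was tested. Sites were found in 4 of the 10 leading regions. When the 220 regions were ordered by mean score rank into quartiles of 55, 23, 24, 28 and 28 held a site, from the weakest to the strongest. Ordered by the ratio of the replicate 1 to the replicate 2 score, the numbers were 36, 28, 24 and 15, from the lowest to the highest ratio. Sites were thus present in 65.5% (51.4 to 77.8%) of the lowest and 27.3% (16.1 to 41.0%) of the highest quartile of the ratio. By replicate 2 score alone, 14 of 55 regions of the lowest quartile held a site, and 29 or 30 of 55 in each of the others. Regions with a site had a median replicate 1 score of 22.1 and those without one 26.2, while their median replicate 2 scores were 14.1 and 10.8. By width, the numbers were 17, 22, 26 and 38 from narrow to wide. A wider region can be touched by a site more easily, and the part of width in these shares was not tested.

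**Figure D4:**
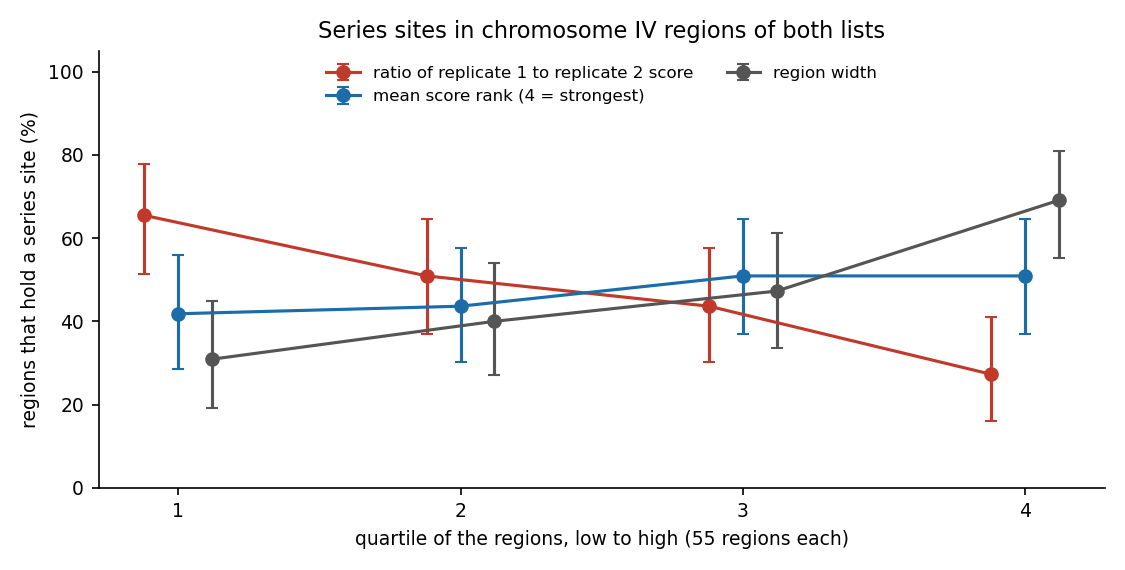
Share of chromosome IV regions in both lists that hold a series site (%), by quartile of the score ratio, the mean score rank and the region width (55 regions a quartile), with exact 95% binomial intervals. The share is 65.5% in the lowest and 27.3% in the highest quartile of the ratio, and between 41.8% and 50.9% across quartiles of rank.

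When the 109 sites were ordered by the mean score rank of their region and cut into 3 sets, 8 of 37 sites of the strongest set covered the middle of the region (21.6%, 9.83 to 38.2%), 14 of 35 did in the next set (40.0%) and 29 of 37 in the weakest (78.4%, 61.8 to 90.2%). The other autosomes had the same order, with 19 of 162 (11.7%, 7.21 to 17.7%), 55 of 162 (34.0%) and 102 of 162 (63.0%), so it was not particular to chromosome IV. The median distance between the midpoints of site and region was 87.5 bp, 56 bp and 20 bp in the same order. Regions of the strongest set were also wider, with medians of 280, 231 and 188 bp, so there was more room beside the middle. Its sites were narrower, with medians of 71, 86 and 87 bp in the same order. The part of these widths in the shares was not tested. In the leading region at 4390480, the site lay from 4390773 to 4390837, close to the right edge. The sites in the regions at 12404148 and 385509 also lay near the right edge, from 12404384 to 12404490 and from 385670 to 385729. The site in the region at 14824790, from 14824803 to 14825154, was 352 bp wide and covered the middle.

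**Figure D5:**
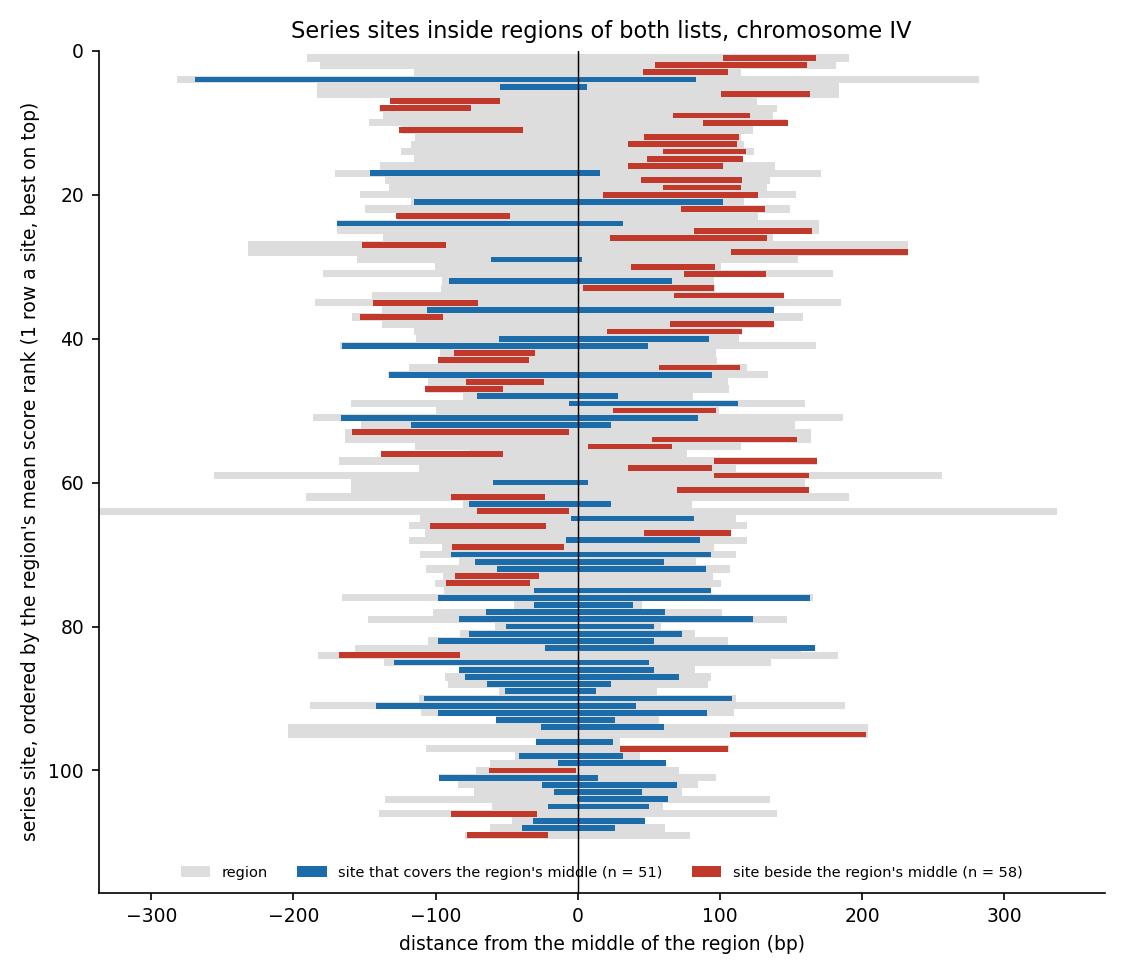
Position of the 109 series sites relative to the middle of their chromosome IV region (bp), 1 row a site, ordered from the best to the worst mean score rank, with the region in grey. Sites beside the middle (58) prevail in the upper rows and sites that cover it (51) in the lower rows.

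In 6 regions the series list had 2 sites each. In the region from 11118986 to 11119449, which scored 40.97 and 34.97 in replicates 1 and 2, sites at 11119066 to 11119124 and 11119326 to 11119449 lay on either side of an uncovered middle. The same held for the region from 11822422 to 11822749 (scores 18.7 and 17.2), with sites at 11822427 to 11822579 and 11822638 to 11822739. In the other 4 regions, at 874641, 1012509, 9525074 and 17278345, the left-hand site covered the middle and the right-hand site lay beside it.

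The score of a series site is signed, with a lowest value of -1.94 on chromosome IV, and is not known to measure strength. Sites below 0 were found mostly where replicate 2 scored higher, a difference that was not tested. Of 13 sites on regions in both lists with a score below 0, 10 were in regions where replicate 2 scored higher (76.9%, 46.2 to 94.96%). Of the 96 sites with a score of 0 or above, 16 were in such regions (16.7%, 9.84 to 25.7%). The region at 14824790, with its high replicate 2 score, had a site score of -1.93. On regions in both lists, sites with a score below 0 were also wider, with a median of 137 bp, against 76 bp for the others. The 8 sites below 0 on replicate 2 only regions were 54 to 121 bp wide, the same range as all 17 sites there. Whether they were wider than the other sites on such regions was not tested.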

How the data were processed

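Peak intervals of 2 ChIP libraries and a list of sites for the whole series were analysed. The input libraries were not analysed here. The submitters' processing notes name BWA as the aligner. Peaks carry MACS as their source, and coordinates are on WormBase WS220, per the file headers. No version or setting, no use of the input and no derivation of the series list is given in the sources. The authors deposited a score for each interval, with no stated scale.

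Peaks sharing at least 1 bp were joined. Chromosome lengths were taken as the furthest peak end in the 3 lists (17461594 on IV). Density and the share of the middle section were tested with two-sided exact binomial tests, and shares with two-sided Fisher's exact tests, adjusted by Benjamini-Hochberg over the 4 tests. The p of an alternative setting was adjusted beside the main p of the other tests. Regions were treated as independent. Joining, the density test and the test of the share in both lists were checked on simulated peaks placed at random, without runs. The middle section test, the attachment of sites and the runs were not checked in this way. Regions were named by mean score rank in both lists (10), and by extremes of score, width and ratio (3 each), runs, gaps and number of sites. Members, rules and tests were chosen with earlier results of these data known. The neighbour at 385110, the stretch at 11071021 and the runs from 11324130 and 12022743 were chosen after their values were seen. The software was scipy 1.17.1, pandas 2.3.3, numpy 2.4.6 and matplotlib 3.10.9 under Python 3.11.15.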

Additional observations from a re-analysis of the deposited data

How the results depend on the processing

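Of 22 alternative values for the 4 tests, 10 had the same direction and stayed on the same side of 0.05. Each alternative p was adjusted with the other tests kept at their main setting, and this count and the calls below rest on that choice. The 10 include the share in both lists joined within 500 bp and without runs, which are taken up below. Leaving out regions in runs was chosen after seeing the data. The density ratio of IV to the other autosomes was 1.01 and not past the threshold. For regions in both lists it was 0.842, past the threshold with this adjustment. With the middle section also at that setting, whether it passes depends on which tests are counted. The ratio was 0.859 for series sites, 0.908 when peaks within 500 bp were joined and 0.963 for peaks at or above the median score. Without runs it was 0.9499. It ran from 0.900 to 1.02 when either replicate was left out. The share of the middle section, 41.3%, lost its call at 35.5% for regions in both lists, 33.6% for series sites, 38.3% with peaks joined within 500 bp, 39.8% for peaks at or above the median score and 36.5% without runs. It was 38.9% to 41.5% with either replicate left out, past the threshold only without replicate 1. The cause was not tested, apart from the part of runs. The share in both lists stayed lower on IV in all 4 alternatives. It ran from 27.6% on IV and 34.2% elsewhere (50% of both peaks shared) to 55.3% and 62.0% (joined within 500 bp). Adjusted Fisher's exact p ran from 0.00408 to 0.0356. For joining within 500 bp (0.0356) and for leaving out runs (0.0286), it would exceed 0.05 with all 4 tests at that same setting. These alternatives would then not pass the threshold. The share of regions holding a site was not past the threshold in any of its 4 alternatives. Shares in both lists need both replicates, so leaving out either gives no value. No paired analysis was possible because no peak list of the input libraries was used here. Depth is unknown.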

Other observations

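The 100 kb window of chromosome IV with most regions in both lists, from 2300001 to 2400000, held 8 such regions among 14, and their mean score ranks ran from 123.25 to 196.25 among the 220. They included 2308728 to 2308915, which scored 17.7 in replicate 1 and 7.80 in replicate 2, and 2314192 to 2314413, which scored 23.1 and 9.78. The windows from 11100001 to 11200000 and from 11300001 to 11400000 each held 7. The second of these contained the widest region of the chromosome and 7 series sites. Regions occurred in 143 of 175 windows, and regions in both lists in 116.

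In the strongest set of series sites on chromosome IV, the sites beside the middle of their region lay to its right more often than to its left. Of 29 such sites, 22 lay to the right in the orientation of the coordinates (75.9%, 95% exact interval 56.5 to 89.7%), compared with 76 of 143 on the other autosomes (53.1%, 44.6 to 61.5%). Over all sites beside the middle, the shares were 35 of 58 on IV (60.3%) and 151 of 310 on the other autosomes (48.7%). This was noticed in the data and was not tested.

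The 17 series sites on replicate 2 only regions had a median score of 0.00, against 1.87 for the 109 on regions in both lists. The strongest of these replicate 2 regions, from 15077452 to 15077544, scored 20.5 in replicate 2. Of the 2 sites that touched no region, the site from 3579645 to 3579709 (score 0.26) was 46417 bp from the nearest replicate 1 peak and 115042 bp from the nearest replicate 2 peak. The site from 11326833 to 11326885 (score 1.46) was 88 bp and 366 bp away.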
